A study of Homo sapiens with 10 samples.

Results

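The 8 genes described here were 6 human metallothionein genes (MT1E, MT1F, MT1G, MT1M, MT1X and MT2A), the zinc-sensing transcription factor gene MTF1 and the zinc exporter gene SLC30A1. They were chosen by gene symbol from the 52402 symbols of the count files, and all 8 were found. The counts came from mRNA-sequencing of BEAS2B, an established cell line of human bronchial epithelium. Cells were transfected by lipofection with a scrambled miRNA (miRcontrol), a miR-3124-5p mimic (miR3124_mimic), a miR-200b-3p mimic (miR200b_mimic), a miR-92b inhibitor (miR92b_inhibitor) or both mimics and the inhibitor together (3-miRNA mixed group), each for 48 h, and 2 libraries per group were sequenced. Single molecules were given at 50 nM, and the amount of each in the mixed group is not given in the sources used here. A mimic raises the amount of a miRNA in the cell and an inhibitor blocks it, so each comparison with miRcontrol asks which transcripts differ when 1 miRNA is raised or blocked, and the mixed group asks the same of the 3 changes at once. Every group had been transfected, and untransfected cells were not analysed here. The sources used here do not say whether the 2 libraries of a group came from separate transfections, so p-values measure the spread between these libraries, which may be technical.

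Metallothioneins are small, cysteine-rich proteins that bind zinc and copper inside the cell and also take up toxic cadmium. MTF1 is activated by a rise in free zinc, moves to the nucleus and binds short metal response elements in the promoters of metallothionein genes and of SLC30A1. The SLC30A1 protein (ZnT1) sits in the plasma membrane and carries zinc out of the cell, so storage in metallothionein and export through SLC30A1 are the classic responses to zinc. Metallothionein genes, MT2A above all, also respond to glucocorticoids and to inflammatory signals.

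The miRNAs of the study act on messenger RNAs by pairing of their seed (bases 2 to 8, in capitals) with the 3′UTR. The mature sequences, from RefSeq, are shown because they define the words searched for in the 8 genes. Both arms of miR-92b are given, since the labels do not name the arm that the inhibitor blocks and the study's panel names miR-92b-5p.
hsa-miR-3124-5p: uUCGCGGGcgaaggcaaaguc
hsa-miR-200b-3p: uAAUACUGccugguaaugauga
hsa-miR-92b-5p: aGGGACGGgacgcggugcagug
hsa-miR-92b-3p: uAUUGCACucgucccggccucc
The 4 seeds differ from each other. The word of 7 bases that pairs with the seed of miR-3124-5p is CCCGCGA, found in 0.622% of the 12224 3′UTRs of tested genes (GENCODE v29, GRCh38). That of miR-200b-3p is CAGTATT, found in 19.5% of them. For miR-92b-5p the word is CCGTCCC (4.19%), and for miR-92b-3p it is GTGCAAT (13.1%). In the 8 genes, 1 word was found. It was the miR-92b-3p word in the 3′UTR of MTF1, at base 3724 of 5569, at chr1:37811396-37811422 on the minus strand, and the 27 bases there read acttaccttgGTGCAATatgtgtagct with the word in capitals. The 3′UTRs of the 6 metallothionein genes, 139 to 393 bases long, and that of SLC30A1, 3820 bases long, held none of the 4 words. For each gene only 1 transcript was read, the longest protein-coding one, and 3′UTRs of other transcripts were not. That transcript has 2 exons for MT1E (3′UTR of 291 bases), MT1G (393) and MT1X (326). It has 3 exons for MT1F, MT1M and MT2A (139 to 144 bases). A word is only a match of letters, and no match says only that these letters are not in that window.

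Library totals ranged from 13587666 to 18503890 counts, and levels are given as CPM (a gene's share of the counts on tested genes, scaled to 1000000 counts and by library factors of 0.985 to 1.02). The epithelial label of the cells was checked against 7 markers, whose summed level was 2220 to 2268 CPM in miRcontrol. Nearly all of it came from KRT7, KRT8 and KRT18, while EPCAM (0.289 CPM) and CDH1 (0.146 CPM) were close to 0. This sum was 4188 to 4270 CPM in miR200b_mimic, 4081 to 4109 in the mixed group, 2774 to 2781 in miR3124_mimic and 2098 to 2188 in miR92b_inhibitor. The 6 mesenchymal markers summed to 7333 to 7355 CPM in miRcontrol, to 6839 to 6986 in miR92b_inhibitor and to between 4436 and 5001 in the other 3 groups. Leukocyte markers summed to 0.973 to 1.67 CPM in miRcontrol and to 12.8 in both libraries of miR3124_mimic. CD14 made up 12.5 CPM of the latter, and PTPRC and CD3E were at 0 there. Endothelial markers summed to 0.229 to 0.298 CPM in miRcontrol and to 3.06 to 4.78 in miR3124_mimic, of which CDH5 made up 3.26. The neuroendocrine markers CHGA and INSM1 had no count in any library. Whether these markers bear on the members' values was not tested.

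Of the 8 members, 6 passed the filter on low counts and were tested among 14884 genes with edgeR's quasi-likelihood test and Benjamini-Hochberg adjustment. A gene was called at an adjusted p under 0.05. MT1F passed the filter through the libraries of miR3124_mimic and the mixed group, where it was high. It is included in the counts and medians below, where its rises in these groups are description and not support. In miR3124_mimic, 5 members were higher than in miRcontrol and 1 was lower, where 25.7% of all tested genes were called higher and 25.3% lower. Of these, 4 (MT1E, MT1F, MT1X and SLC30A1) rose at least 2-fold, a size of change that was called, in either direction, for 8.13% of all tested genes. In miR200b_mimic, 4 members were higher and none was lower (background 21.4% higher and 19.1% lower), and none reached 2-fold (background 4.88%). In miR92b_inhibitor, 3 were higher and none was lower (background 17.5% and 18.2%), again with none called at 2-fold (background 1.91%), although MT1F was past 2-fold at an unadjusted p of 0.0179. In the 3-miRNA mixed group, all 6 tested members were higher (background 21.5% higher and 21.1% lower), and MT1E and MT1F rose at least 2-fold (background 4.67%). The median log2 fold change of the 6 tested members was 1.21, 0.30, 0.20 and 0.78 in these 4 comparisons, beside 0.00, -0.01, -0.01 and 0.00 over all tested genes. All 4 comparisons share the same 2 miRcontrol libraries. The members, and the other gene lists below, were chosen with earlier results of these data known. Counts and medians set beside the background, here and below, therefore describe them and do not test them as sets.

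**Figure D1:**
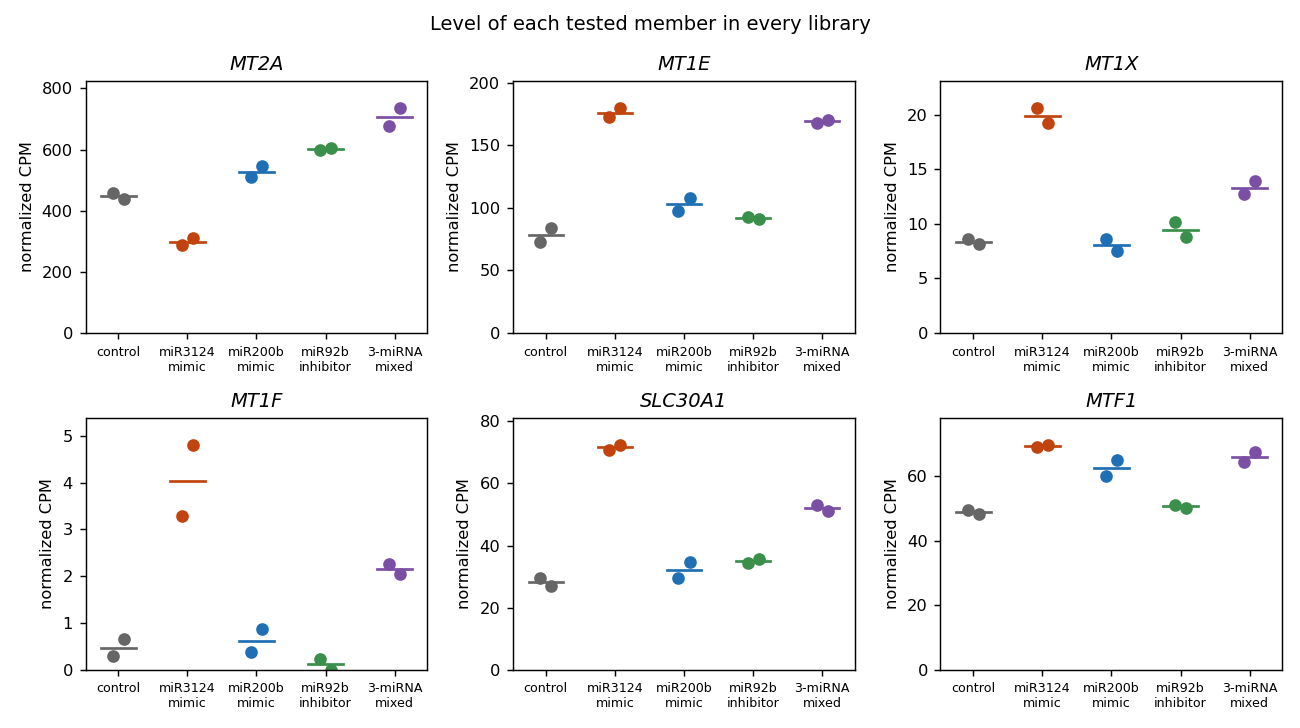
Level of the 6 tested members in each library, in normalized CPM on axes that start at 0. Each point is 1 library, each line is the mean of the 2 libraries of a group, and MT2A is the member whose miR3124_mimic libraries (288 and 309 CPM) lie below those of miRcontrol.

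MT2A encodes the metallothionein with the highest transcript level in these cells. Per kilobase of the longest protein-coding transcript it stood at 570.3 ± 17.9 CPM in miRcontrol (SD, n = 2), beside 108 ± 11.01 for MT1E and 15.6 ± 0.691 for MT1X. In miRcontrol the 2 libraries had 458 and 438 CPM of MT2A, and in miR3124_mimic they had 288 and 309. The miR3124_mimic libraries were thus the lowest of all 10. MT2A fell by 0.58 on the log2 scale (SE 0.042, edgeR adjusted p = 1.18e-16) in miR3124_mimic. The miR200b_mimic libraries had 509 and 546 CPM, those of miR92b_inhibitor 599 and 605 and those of the mixed group 676 and 736. All libraries of these 3 groups lay above both miRcontrol libraries. The log2 fold changes were 0.24 (SE 0.040, adjusted p = 4.18e-06), 0.42 (SE 0.040, adjusted p = 5.64e-12) and 0.65 (SE 0.040, adjusted p = 8.66e-19). Ordered by level, MT2A went from miR3124_mimic through miRcontrol, miR200b_mimic and miR92b_inhibitor to the mixed group, and each neighbour in this order differed from the next past the threshold.

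MT1E, the most abundant metallothionein 1 transcript here, moved the other way in miR3124_mimic. Its levels were 72.9 and 84.2 CPM in miRcontrol, 173 and 180 in miR3124_mimic and 168 and 170 in the mixed group. The libraries of both latter groups lay above all others. Levels in miR200b_mimic (97.9 and 108 CPM) and miR92b_inhibitor (92.8 and 91.3 CPM) lay between, and outside the miRcontrol range. The log2 fold change was 1.17 in miR3124_mimic (SE 0.051, edgeR adjusted p = 2.93e-24), 1.11 in the mixed group (SE 0.051, adjusted p = 3.07e-23), 0.39 in miR200b_mimic (SE 0.055, adjusted p = 6.01e-08) and 0.23 in miR92b_inhibitor (SE 0.055, adjusted p = 0.000725). Without the first miRcontrol library the last call was lost (log2 0.13, adjusted p = 0.132). In the order of levels, the mixed group and miR3124_mimic were the neighbours that did not differ past the threshold (log2 difference -0.06, 95% interval -0.15 to 0.03).

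MT1X, another metallothionein 1 gene, had 8.64 and 8.12 CPM in miRcontrol, 20.6 and 19.2 in miR3124_mimic and 12.7 and 13.9 in the mixed group. These 3 groups did not overlap. MT1X rose by 1.25 (log2, SE 0.118, adjusted p = 1.13e-12) in miR3124_mimic and by 0.67 (SE 0.123, adjusted p = 1.30e-05) in the mixed group. In miR200b_mimic (8.60 and 7.54 CPM) and miR92b_inhibitor (10.2 and 8.76 CPM) it was not called, with log2 fold changes of -0.07 (95% interval -0.34 to 0.21) and 0.18 (95% interval -0.08 to 0.43). In the annotation MT1X overlaps AC026461.1 on the same strand. Of the windows of 100 bases, the read length, in the longest protein-coding MT1X transcript, 50.8% also occur in AC026461.1. Other MT1X transcripts were not read.

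MT1F was scarce. The miRcontrol libraries held 5 and 11 counts, those of miR3124_mimic 48 and 85, those of miR200b_mimic 5 and 15, those of miR92b_inhibitor 4 and 0 and those of the mixed group 41 and 38. Libraries of miR3124_mimic and the mixed group held more than any other. The log2 fold change was 3.10 (SE 0.404, adjusted p = 7.55e-09) in miR3124_mimic and 2.19 (SE 0.439, adjusted p = 5.44e-05) in the mixed group. It was 0.46 (95% interval -0.66 to 1.57) in miR200b_mimic, where the libraries overlapped those of miRcontrol. In miR92b_inhibitor it was -1.98 (SE 0.806), which just missed the threshold (adjusted p = 0.0502) and rested on 4 counts in the group. This value turned on single libraries. It was -2.46 without the first miRcontrol library and -6.01 without the first miR92b_inhibitor library, both called (adjusted p = 0.0284 and 0.00877), but -1.29 and -0.98 without the second library of either group (adjusted p = 0.413 and 0.431).

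MT1G and MT1M, metallothionein 1 genes of the same cluster, were at the floor of at most 3 counts in every library, and no fold is given for them. MT1G had 1 count in 1 of the 10 libraries, of miR3124_mimic. MT1M had 1 count in each of 4 libraries, of miRcontrol, miR3124_mimic (2 libraries) and the mixed group. A limit of 3 counts corresponded to 0.161 to 0.224 CPM. Of 10 further metallothionein symbols, MT1B, MT1H, MT1JP, MT1IP, MT1HL1 and MT4 had no count, MT3 had at most 1 count in a library and MT1DP at most 5. For MT1A the miR92b_inhibitor libraries had 9 and 6 counts, those of miR3124_mimic 6 and 4, those of miR200b_mimic 2 and 1, those of miRcontrol 0 and 1 and those of the mixed group 1 and 0, too few to be tested. MT1L was the exception, with 66 to 199 counts per library. Its log2 fold change was 0.65 in miR3124_mimic, 0.47 in miR92b_inhibitor and 0.77 in the mixed group, all called, and -0.08 in miR200b_mimic, not called.

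Summed over the 6 metallothionein members, the level was 540 and 531 CPM in miRcontrol and 485 and 513 in miR3124_mimic. The sum in miR3124_mimic was 0.932 of that in miRcontrol, while the 5 metallothionein 1 members together stood at 2.29 times their miRcontrol level (200.2 ± 5.12 against 87.4 ± 7.96 CPM, SD, n = 2 each). The makeup differed accordingly. MT2A gave 84.9% and 82.5% of the metallothionein counts in miRcontrol but 59.4% (95% Wilson interval 58.3 to 60.6) and 60.3% (59.3 to 61.3) in miR3124_mimic, and these intervals cover counting error only. In miR200b_mimic the sum was 616 and 662 CPM with an MT2A share of 82.6% and 82.5%, and in miR92b_inhibitor it was 702 and 705 CPM with 85.3% and 85.8%. In the mixed group the sum was the highest, at 859 and 922 CPM, with a share of 78.7% and 79.8%. The number of MT2A counts per MT1E count ran from 5.08 to 6.63 in miRcontrol, miR200b_mimic and miR92b_inhibitor, was 4.02 and 4.33 in the mixed group and only 1.67 and 1.72 in miR3124_mimic. No p is given for these sums and shares, because the members were chosen with earlier results of these data known. The authors' handling of reads that match several genes is not given in the sources used here. No window of 100 bases of the longest protein-coding transcript of MT1E, MT1F, MT1G, MT1M or MT2A was shared with another gene. Of windows of 50 bases, 10.6% of MT1E and 4.89% of MT2A were shared.

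**Figure D2:**
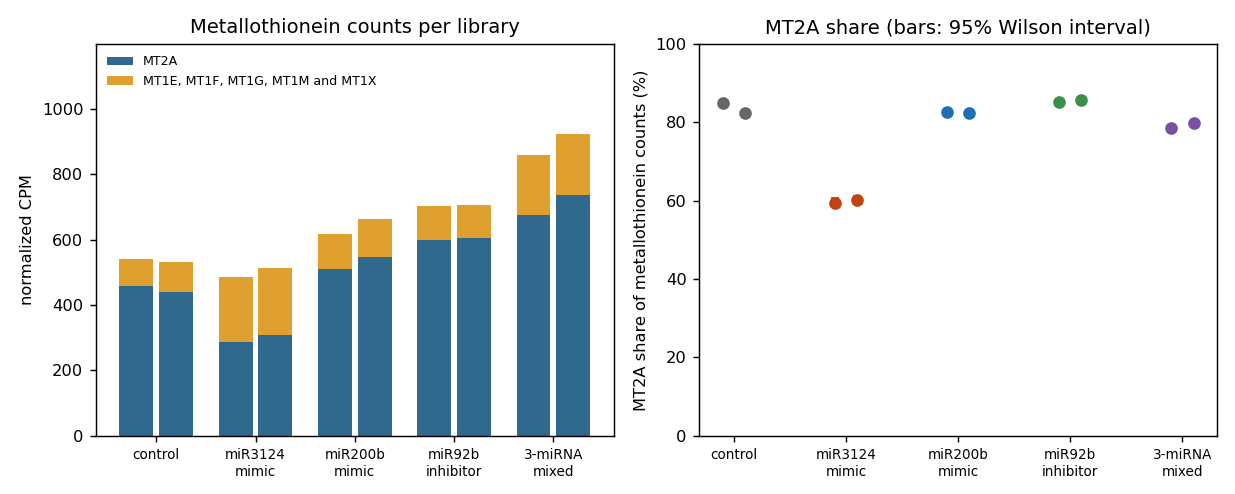
Left, summed metallothionein level of each library in normalized CPM, split into MT2A (blue) and the 5 metallothionein 1 members (yellow). Right, the MT2A share of metallothionein counts in percent, with 95% Wilson intervals for each library, which lies near 60% in miR3124_mimic and between 78.7% and 85.8% in the other 4 groups.

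SLC30A1, the zinc exporter, had 29.4 and 26.9 CPM in miRcontrol and 70.8 and 72.5 in miR3124_mimic, the highest of the 10 libraries. The mixed group followed with 52.9 and 51.1 CPM. The log2 fold change was 1.35 (SE 0.069, adjusted p = 7.97e-22) in miR3124_mimic and 0.88 (SE 0.071, adjusted p = 1.23e-14) in the mixed group. Smaller rises were found in miR92b_inhibitor (34.5 and 35.6 CPM, log2 0.31, SE 0.075, adjusted p = 0.000806) and miR200b_mimic (29.7 and 34.9 CPM, log2 0.21, SE 0.078, adjusted p = 0.0311). The call in miR200b_mimic was lost with DESeq2 (adjusted p = 0.108), with edgeR's exact test (0.0557), with a fit of the 2 groups alone (0.0562) and when the second miRcontrol library or the second miR200b_mimic library was left out (log2 0.14 and 0.08, adjusted p = 0.263 and 0.607). In the order of levels, miR200b_mimic and miR92b_inhibitor did not differ past the threshold (log2 difference 0.11, SE 0.075), and the other neighbours did. Taken as miR200b_mimic minus miR92b_inhibitor, this difference ranged from -0.0046 without the first miR200b_mimic library to -0.23 without the second, where it was called (adjusted p = 0.0404).

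MTF1, the transcription factor, rose in 3 of the 4 comparisons. The miRcontrol libraries had 49.6 and 48.1 CPM, those of miR3124_mimic 69.0 and 69.6, those of miR200b_mimic 60.1 and 65.0 and those of the mixed group 64.2 and 67.4. All libraries of these 3 transfected groups were above those of miRcontrol and of miR92b_inhibitor (51.1 and 50.1 CPM). The log2 fold changes were 0.51 (SE 0.059, adjusted p = 3.79e-10), 0.36 (SE 0.060, adjusted p = 2.12e-06) and 0.43 (SE 0.058, adjusted p = 2.75e-08). In miR92b_inhibitor the log2 fold change was 0.05 (95% interval -0.07 to 0.17, adjusted p = 0.560). This group and the mixed group both received the miR-92b inhibitor, whose arm is not named, and the MTF1 3′UTR holds a miR-92b-3p word. Whether that word bears on MTF1 levels was not tested. In the order of MTF1 levels, miRcontrol and miR92b_inhibitor did not differ past the threshold, nor did miR200b_mimic from the mixed group or the mixed group from miR3124_mimic (log2 differences 0.07 and 0.08, SE 0.057 and 0.056).

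**Figure D3:**
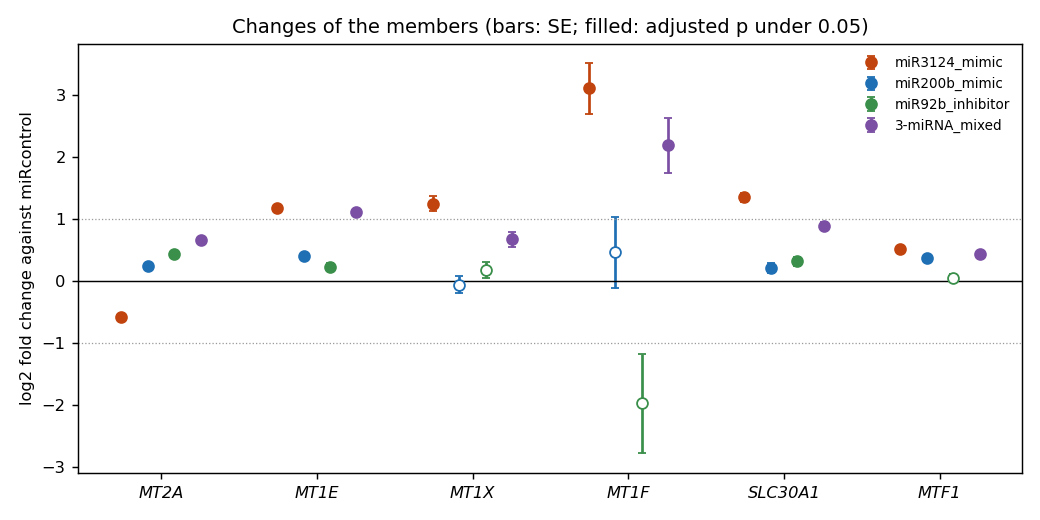
Log2 fold change of each tested member against miRcontrol in the 4 transfected groups, with the SE as bars, filled points for an adjusted p under 0.05 and dotted lines at 2-fold. MT2A is the one member with a called fall (-0.58 in miR3124_mimic), and the widest bars belong to MT1F.

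The promoters were read for the core of the metal response element, to which MTF1 binds, because the members that are its textbook targets moved in different directions. RefSeq promoter windows (GRCh38.p14, 250 bases before the start) were found for 4 of the 8 members, MT1X, MT2A, MTF1 and SLC30A1. The starts are those of RefSeq and can differ from GENCODE v29, which gives the gene positions below. The MT2A window lies inside the GENCODE span of MT2A, and the SLC30A1 window does not adjoin that of SLC30A1. Match counts could differ with another start. The core was searched as TGCACNC or TGCGCNC on both strands, and its matches are in capitals. No other motif was searched. The windows of MT2A at chr16:56608334-56608583 on the plus strand, of MT1X at chr16:56682220-56682469 on the plus strand and of SLC30A1 at chr1:211579162-211579411 on the minus strand are shown. Among the 4 members with a window, these changed most in miR3124_mimic. MT1E and MT1F, which also rose there, had no window.
MT2A promoter: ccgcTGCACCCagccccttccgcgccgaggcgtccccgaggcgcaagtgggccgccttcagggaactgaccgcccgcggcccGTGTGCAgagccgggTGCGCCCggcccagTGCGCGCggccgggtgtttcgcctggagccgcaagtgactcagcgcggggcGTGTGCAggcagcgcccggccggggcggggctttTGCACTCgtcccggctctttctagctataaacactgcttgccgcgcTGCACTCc
MT1X promoter: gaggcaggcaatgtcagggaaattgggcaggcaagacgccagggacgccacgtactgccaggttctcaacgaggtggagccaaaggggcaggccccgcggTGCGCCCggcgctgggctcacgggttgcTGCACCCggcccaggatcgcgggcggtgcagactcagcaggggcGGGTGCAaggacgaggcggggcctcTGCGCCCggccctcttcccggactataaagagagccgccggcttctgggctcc
SLC30A1 promoter: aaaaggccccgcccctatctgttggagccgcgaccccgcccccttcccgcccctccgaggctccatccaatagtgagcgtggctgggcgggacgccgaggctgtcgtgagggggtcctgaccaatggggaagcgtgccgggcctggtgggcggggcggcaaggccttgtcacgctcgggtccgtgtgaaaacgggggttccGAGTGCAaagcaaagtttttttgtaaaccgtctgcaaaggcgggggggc
The core matched 7 times in the MT2A window, 4 times in that of MT1X, once in that of SLC30A1 and not in that of MTF1. At least 1 match was present in 24.7% of 27305 RefSeq promoters and in 33.1% of the 10434 of tested genes, and at least 4 matches in 0.366% and 0.498%. In miR3124_mimic the gene with 7 matches fell and those with 4 and 1 rose. A match is a description of the letters and not a site shown to be bound.

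When the groups were compared with each other, MT2A and the other members again took opposite sides of miR3124_mimic. Against miR200b_mimic and against miR92b_inhibitor, all 6 tested members differed in miR3124_mimic (background 57.8% and 58.8% of genes called in either direction). MT2A was lower, by 0.82 and 1.01 on the log2 scale (log2 differences -0.82, SE 0.041, and -1.01, SE 0.041), and the other 5 were higher. MTF1 was close, with a log2 difference of 0.14 to miR200b_mimic (SE 0.057, adjusted p = 0.0282). This difference was not called with DESeq2 (adjusted p = 0.101) or with no filter other than at least 1 count (adjusted p = 0.0853). Nor was it called without either miR3124_mimic library or the first miR200b_mimic library. Between miR200b_mimic and miR92b_inhibitor, 4 members differed (background 50.5%): MT1E, MT1F and MTF1 were higher and MT2A was lower in miR200b_mimic. The log2 difference of MTF1 was 0.31 (SE 0.059, adjusted p = 1.79e-05). This count fell to 2 without the second miR92b_inhibitor library, the one in which MT1F had no count, as the calls of MT1F and MT1E were lost. Both were also lost without the second miR200b_mimic library, where that of SLC30A1 was gained.

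The 3-miRNA mixed group was set against each single treatment and against their sum. Compared with miR3124_mimic, 4 members differed (background 49.1%). MT2A was higher by 1.24 (SE 0.041, adjusted p = 1.27e-28), while SLC30A1 (log2 difference -0.46, SE 0.062), MT1X (-0.58, SE 0.107) and MT1F (-0.92, SE 0.303) were lower. The MT1F call was lost with DESeq2 (adjusted p = 0.107) and without the second library of either group. Compared with miR200b_mimic, 5 members were higher in the mixed group (background 38.6%), all but MTF1 (log2 difference 0.07, 95% interval -0.04 to 0.18). Compared with miR92b_inhibitor, all 6 were higher (background 39.6%), MT2A least, by 0.23 (SE 0.039, adjusted p = 4.19e-06).

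If the 3 single log2 fold changes simply added up, the mixed group would show their sum. This departure was tested for each gene, and it was called for 5 of the 6 tested members (background 21.7%). For SLC30A1 the sum was 1.87 and the mixed group showed 0.88, a departure of -0.98 (SE 0.147, adjusted p = 9.61e-07). For MT1E the sum was 1.79 against 1.11 measured (departure -0.68, SE 0.106, adjusted p = 2.06e-06). MTF1 departed by -0.49 (SE 0.118, adjusted p = 0.00160). MT1X departed by -0.69 (SE 0.256, adjusted p = 0.0476). This call was lost without either miRcontrol library and without the first library of each of the other 4 groups. It was also lost with DESeq2 (adjusted p = 0.155) and with no filter other than at least 1 count (adjusted p = 0.0928). MT2A went the opposite way. Its single changes summed to 0.08, since the fall in miR3124_mimic offset both rises, and the mixed group showed 0.65, a departure of 0.58 (SE 0.080, adjusted p = 2.03e-07). The departure of MT1F (0.60, SE 1.16) was not called. Because the dose of each molecule in the mixed group is not given, a smaller dose of each and an interaction cannot be told apart.

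**Figure D4:**
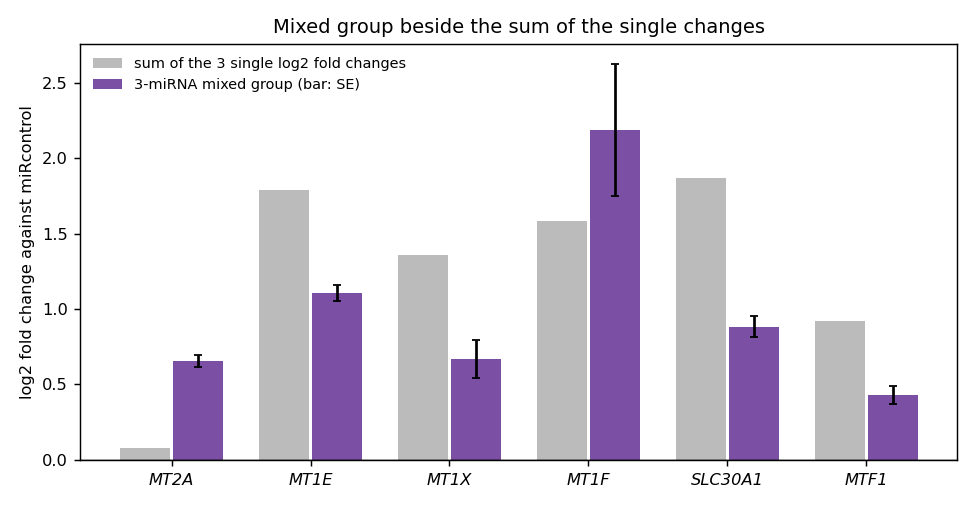
Sum of the 3 single log2 fold changes (grey) beside the log2 fold change of the 3-miRNA mixed group with its SE (purple), both against miRcontrol. The mixed group lies below the sum for SLC30A1, MT1E, MT1X and MTF1 and above it for MT2A (0.65 beside 0.08).

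The other genes of zinc transport were read mainly from the SLC30 family, whose members move zinc out of the cytosol, and the SLC39 family, whose members move zinc in. Of 10 other exporters, which include TMEM163 from outside the SLC30 family, 6 were tested, and TMEM163 was not. With miR3124_mimic 3 of them rose and 1 fell, with miR200b_mimic 2 rose and 1 fell, with miR92b_inhibitor 1 rose and 1 fell, and 3 rose in the mixed group. Called in either direction were thus 66.7%, 50%, 33.3% and 50% of the exporters, beside 51.0%, 40.6%, 35.7% and 42.7% of all tested genes. None changed 2-fold, unlike SLC30A1 in miR3124_mimic. In miR3124_mimic, SLC30A7, which loads zinc into the secretory pathway, rose by 0.49 (SE 0.050), SLC30A4 rose by 0.45 (SE 0.093) and SLC30A5 fell by 0.17 (SE 0.052). In miR200b_mimic, SLC30A9 rose by 0.37 (SE 0.052), SLC30A6 rose by 0.28 (SE 0.059) and SLC30A3 fell by 0.72 (SE 0.270). SLC30A6 also rose by 0.25 in miR3124_mimic, 0.27 in miR92b_inhibitor and 0.39 in the mixed group. SLC30A4 fell by 0.39 in miR92b_inhibitor. The second gene named for the mixed group was SLC30A7, with a log2 fold change of 0.25. Here and in the lists below, a gene can also be called in groups for which it is not named.

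Of 14 importers, 10 were tested. With miR3124_mimic 5 of them rose and 2 fell, with miR200b_mimic 3 rose and 2 fell, with miR92b_inhibitor 3 rose, and 6 rose in the mixed group. These were 70%, 50%, 30% and 60% of the importers (all tested genes 51.0%, 40.6%, 35.7% and 42.7%), with a median log2 fold change of 0.31, -0.01, 0.07 and 0.29. SLC39A10, a zinc importer of the plasma membrane, rose most, from 43.4 ± 0.00501 CPM in miRcontrol to 83.6 ± 0.978 in miR3124_mimic (SD, n = 2), a log2 fold change of 0.94 (SE 0.063, adjusted p = 1.20e-17), and by 0.54 in the mixed group. SLC39A13 rose by 0.57 in miR3124_mimic and by 0.18 in miR200b_mimic. SLC39A3, another plasma membrane importer, fell from 25.9 ± 2.17 to 13.6 ± 1.32 CPM in miR3124_mimic (log2 -0.93, SE 0.100, adjusted p = 4.59e-11), and SLC39A4 fell by 0.53 there. SLC39A8 rose by 0.59 in miR200b_mimic and 0.55 in the mixed group, at mean levels under 5 CPM. In miR200b_mimic SLC39A11 fell by 0.26 and SLC39A9 by 0.17, while SLC39A9 rose by 0.23 in miR3124_mimic. In miR92b_inhibitor SLC39A14 rose by 0.33, SLC39A6 by 0.28 and SLC39A10 by 0.20. SLC39A6 also rose in miR3124_mimic, by 0.40. SLC39A7 was listed at 0 in all 10 libraries, as were its neighbours RING1 and HSD17B8, while RXRB and VPS52 beside them had 87 and 81 counts over the 10 libraries together, so these values are not read as absence of the transcript.

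**Figure D5:**
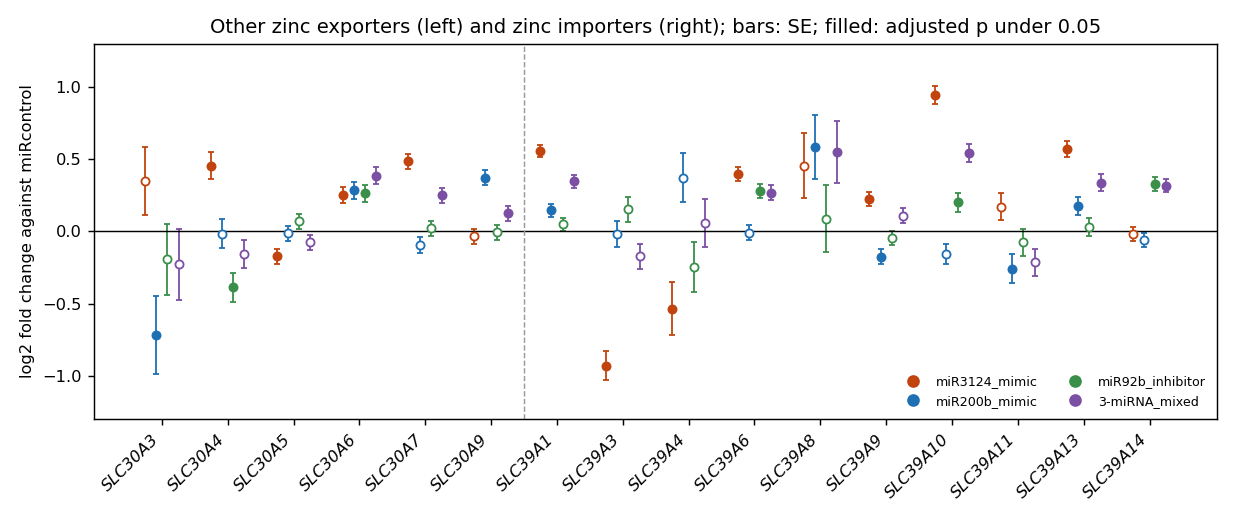
Log2 fold change against miRcontrol of the 6 tested SLC30 exporters other than SLC30A1 (left of the dashed line) and the 10 tested SLC39 importers (right), with the SE as bars and filled points for an adjusted p under 0.05. The points farthest from 0 are SLC39A10 (0.94) and SLC39A3 (-0.93), both in miR3124_mimic.

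The remaining lists hold genes that share an inducer or a metal with metallothioneins. Of 11 copper-handling genes tested, 6 rose and 1 fell with miR200b_mimic, 1 rose and 3 fell with miR3124_mimic, 2 fell with miR92b_inhibitor, and 1 rose and 2 fell in the mixed group. The called share was above that of all tested genes with miR200b_mimic (63.6% beside 40.6%) and below it with miR3124_mimic (36.4% beside 51.0%), with miR92b_inhibitor (18.2% beside 35.7%) and in the mixed group (27.3% beside 42.7%). CCS, the copper chaperone of superoxide dismutase, fell by 1.35 in miR92b_inhibitor (SE 0.193, adjusted p = 2.09e-07) and by 1.01 in the mixed group. STEAP3, a metalloreductase, fell by 1.26 in miR200b_mimic, by 0.64 in the mixed group and by 0.33 in miR3124_mimic. The copper exporter genes ATP7A and ATP7B moved in different groups, ATP7A up by 0.47 in miR200b_mimic and ATP7B down (log2 -0.63) in miR92b_inhibitor. SLC31A2 rose by 0.45 in miR200b_mimic and 0.38 in the mixed group. In miR3124_mimic SLC31A1, the copper importer, rose by 0.16 and COMMD1 fell by 0.23.

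Of 11 tested genes that respond to glucocorticoids, 8 rose and 2 fell in miR3124_mimic, 5 rose and 3 fell in miR200b_mimic, 3 rose and 3 fell in miR92b_inhibitor, and 6 rose and 2 fell in the mixed group. The called shares were 90.9%, 72.7%, 54.5% and 72.7%, beside 51.0%, 40.6%, 35.7% and 42.7% of all tested genes. CEBPD rose by 1.26, 1.09 and 0.64 in miR3124_mimic, miR200b_mimic and the mixed group. DUSP1, a MAP kinase phosphatase, rose by 0.86 in miR3124_mimic and 0.37 in miR200b_mimic. PER1 rose by 0.55 in the mixed group, 0.46 in miR3124_mimic and 0.32 in miR92b_inhibitor, where TSC22D3 rose by 0.52. ERRFI1 rose by 0.65 in miR200b_mimic and 0.27 in miR92b_inhibitor and fell by 0.44 in miR3124_mimic. FKBP5, a classic glucocorticoid target, fell in every comparison with miRcontrol. Its fall was largest with miR200b_mimic (log2 -0.56), followed by the mixed group (-0.37), miR92b_inhibitor (-0.27) and miR3124_mimic (-0.16). KLF9 fell by 0.59 in miR92b_inhibitor and 0.28 in the mixed group. CRISPLD2 fell by 0.74 in miR200b_mimic and 0.43 in miR92b_inhibitor, and GLUL fell by 0.63 in miR200b_mimic. With miR3124_mimic, by contrast, KLF9, CRISPLD2 and GLUL were all called higher (log2 0.55, 0.84 and 0.51).

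Among 11 tested heat shock genes, whose factor HSF1 also acts on metallothionein promoters, none rose and 6 fell in miR3124_mimic, 8 rose and 1 fell in miR200b_mimic, 1 rose and 2 fell in miR92b_inhibitor, and 3 rose and 5 fell in the mixed group. The called shares were 54.5%, 81.8%, 27.3% and 72.7%, beside 51.0%, 40.6%, 35.7% and 42.7% of all tested genes. In miR3124_mimic the small heat shock protein gene HSPB1 fell by 0.998 (SE 0.056, adjusted p = 3.13e-20) and DNAJB1 by 0.63. HSPH1 rose by 0.73 and BAG3 by 0.49 in miR200b_mimic, where HSP90AA1 fell by 0.88. In the mixed group HSF1 rose by 0.28 and HSPH1 by 0.23, while HSP90AA1 and HSPA1A each fell by 0.64. In miR92b_inhibitor DNAJA1 rose by 0.15, BAG3 fell by 0.21 and HSPB1 by 0.14. HSPB1 and DNAJB1 were called higher in miR200b_mimic (log2 0.36 and 0.41). BAG3, HSP90AA1 and HSPH1 were called lower in miR3124_mimic (log2 -0.37, -0.56 and -0.11).

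The 6 metallothionein members lie together at chr16:56608199-56684196 (GRCh38, GENCODE v29), with MT1G on the minus strand and the other 5 on the plus strand. MT2A is at chr16:56608199-56609497, MT1E at chr16:56625475-56627112, MT1M at chr16:56632233-56633986, MT1F at chr16:56657694-56660698, MT1G at chr16:56666731-56668065 and MT1X at chr16:56682424-56684196. MTF1 (chr1:37809567-37859620) and SLC30A1 (chr1:211571568-211578742) are far apart on the minus strand of chromosome 1. The nearest tested coding genes on either side of the cluster did not follow the metallothionein 1 members. BBS2 had log2 fold changes of 0.03, -0.07 and -0.04 with the single treatments, none called, and fell by 0.33 in the mixed group. NUP93 fell by 0.48 in miR3124_mimic, by 0.12 in miR200b_mimic and by 0.13 in the mixed group, and had a log2 fold change of 0.03 in miR92b_inhibitor, not called. Within the cluster, MT2A at one end fell in miR3124_mimic while MT1X at the other end rose.

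The genes whose level across the 10 libraries was most like the metallothionein sum, among 12894 genes with a mean of at least 1 CPM, were TNFAIP3 (Pearson's r = 0.984), NOL7 (0.968), EDRF1 (0.967), TMEM223 (0.961) and TFAM (0.958). These values describe 10 libraries that fall into 5 groups, and MT2A makes up most of the sum. TNFAIP3, an inhibitor of NF-κB signalling, had its lowest mean level, 20.2 CPM, with miR3124_mimic, followed by miRcontrol with 24.4, miR200b_mimic with 34.8, miR92b_inhibitor with 49.7 and the mixed group with 66.8, the same order of groups as MT2A. Choosing TNFAIP3 by its likeness to a sum that is mostly MT2A favours such a shared order. TFAM, a mitochondrial transcription factor, spanned only 123 to 146 CPM.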

How the data were processed

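BEAS2B cells were transfected as described above, and mRNA was sequenced from 2 libraries per group. The authors trimmed the reads, mapped them with TopHat to GRCh38 (submitters' processing notes) and deposited raw read counts per gene, without normalization, for 58173 rows per library. The counting tool, annotation, strand setting and use of reads with several matches are not given in the sources used here. The counts of 5771 rows that repeat a symbol were summed. Columns of the authors' own comparisons were not present in the files used.

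Counts were filtered by filterByExpr, normalized by RLE and tested with the quasi-likelihood method of edgeR 4.0.16 in R 4.3.3, in a single fit of all 10 libraries and no covariates. P-values were adjusted by Benjamini-Hochberg over all 14884 tested genes, and a call needed an adjusted p under 0.05. The SE is the log2 fold change divided by the square root of F. Genes were at the floor where no library of a group held more than 3 counts. Libraries held 13587666 to 18503890 counts, and replicates differed beyond counting error (chi-square per degree of freedom 1.78 to 2.76). In simulated data, 195 of 200 changed genes were recovered for miR3124_mimic, 199 for miR200b_mimic, 198 for miR92b_inhibitor and 200 of 200 for the mixed group (14547 genes simulated). Genes called there without a planted change numbered 14, 9, 11 and 7. The planted changes were all 2-fold and in genes well above the floor. Recovery of smaller changes, or of changes in scarce genes such as MT1F, was not tested.

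The genes named were the 8 members, 10 other metallothionein symbols, for each other list the 2 called genes that rose most and the 2 that fell most in each comparison with miRcontrol (mean of at least 1 CPM), and the 5 genes most like the metallothionein sum. The members and lists were chosen with earlier results of these data known. RXRB, VPS52, RING1, HSD17B8, BBS2 and NUP93 were named for their position. Alternatives were TMM normalization, library totals, DESeq2 1.42.0, edgeR's exact test, fits of 2 groups, other filters, a replicate block, the call at 2-fold with an unadjusted p, and leaving out each library.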

Additional observations from a re-analysis of the deposited data

How the results depend on the processing

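Of 1232 values recomputed under the alternatives, 1152 kept their direction and side of the threshold, or a count within 1.5 times. Of the other 80, 39 came from leaving out 1 library, 29 from calling by 2-fold size and an unadjusted p under 0.05, which by its construction drops small changes, and 6 from DESeq2. Under the 2-fold rule the members called were 0 in miR200b_mimic, 1 in miR92b_inhibitor, 2 in the mixed group, 1 for the mixed group against each single treatment, 3 for miR3124_mimic against miR200b_mimic, 1 for miR200b_mimic against miR92b_inhibitor and 0 for the departure from the sum. Over all genes this rule called 849, 391 and 807 genes in the first 3 of these, 1025, 621 and 714 for the mixed group against miR3124_mimic, miR200b_mimic and miR92b_inhibitor, and 1892, 1150 and 745 in the last 3. Called genes of the other lists were then 0, except for copper handling (1 in miR200b_mimic, 1 in miR92b_inhibitor and 1 in the mixed group) and glucocorticoid-responsive genes (1 in miR3124_mimic and 1 in miR200b_mimic). With DESeq2, 2 zinc importers were called in miR200b_mimic in place of 5, and 1 copper-handling gene in miR3124_mimic in place of 4.

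Leaving out each library in turn gave 2 to 4 called members for miR200b_mimic against miR92b_inhibitor. It gave 1 to 2 zinc exporters in miR92b_inhibitor, 2 to 4 zinc importers in miR200b_mimic, 3 to 6 copper-handling genes in miR200b_mimic, 1 to 3 in miR3124_mimic and 1 to 2 in miR92b_inhibitor, 3 to 6 glucocorticoid-responsive genes in miR92b_inhibitor and 5 to 7 heat shock genes in the mixed group. Replicate numbers were no sign of pairing (differences between libraries correlated between groups at -0.036 to 0.045). With the replicate block, MT1F was also called in miR92b_inhibitor, and 4 members in place of 3 were called there. With no filter other than at least 1 count, MT1F was called there too (adjusted p = 0.0286). The cause of these changes was not tested. MT1F changed sign with few counts behind it. In miR200b_mimic its log2 fold change ranged from -0.32 to 1.15 over the libraries left out, with -0.02 when the first miRcontrol library was missing, and its departure from the sum ranged from -0.78 to 4.63, with -0.40 without the second miR92b_inhibitor library. MT1X in miR200b_mimic ranged from -0.15 to 0.038. None of these values was called.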
